A study of Homo sapiens with 6 samples.

Results

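SP5, AXIN2 and CD44 are 3 genes that Wnt signalling is known to raise in gut cells, and they were picked by name out of the 3511 genes with deposited values. RNA was sequenced from RKO, an established human colorectal carcinoma cell line labelled wild type, after 48 h in 1 of 2 media. The control libraries (n = 3) came from cells in 10% serum with glucose at 4.5 g/L. The fasting libraries (n = 3) came from cells in 1% serum with glucose at 1 g/L, so serum and glucose were lowered together and their shares cannot be told apart. The drug arms named in the design text were not analysed here. In fasting medium SP5 and AXIN2 fell and CD44 rose.

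Wnt ligands bind Frizzled and LRP receptors and stop a cytoplasmic destruction complex, built on Axin and APC, from marking beta-catenin for degradation. Beta-catenin then enters the nucleus and, on TCF/LEF factors, switches on target genes. Some of these targets act back on the pathway. AXIN2 encodes a scaffold of the destruction complex, and SP5 encodes a zinc finger factor of the SP/KLF family that represses other Wnt targets. CD44 encodes a cell surface receptor for hyaluronan, which marks stem-like cells of colorectal tumours and also answers to growth factor and stress signals. RKO is known to carry intact APC and beta-catenin genes, unlike most colorectal lines.

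In GENCODE 29 on GRCh38, SP5 (ENSG00000204335) lies on chromosome 2 from 170715351 to 170718078 on the plus strand. AXIN2 (ENSG00000168646) lies on chromosome 17 from 65528563 to 65561647 on the minus strand. CD44 (ENSG00000026508) lies on chromosome 11 from 35138870 to 35232402 on the plus strand, and the antisense gene CD44-AS1 lies inside it, on the minus strand. The library kit marks strand, but no source used here says whether counting used it, and reads of CD44 and CD44-AS1 may be mixed. Another protein-coding annotation, AC004805.1, overlaps AXIN2 on the same strand. Neither CD44-AS1 nor AC004805.1 is among the genes with deposited values.

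Promoter windows are shown for SP5 and CD44, members that moved in opposite directions, and for SP8, another SP factor that fell. No window is shown for AXIN2. Each window runs from 250 bases before to 50 bases after the RefSeq start of the gene on GRCh38.p14, 5′ to 3′ on its strand. The RefSeq start is not always the GENCODE start given above. The CD44 window begins at 35138921, downstream of the GENCODE start at 35138870, so it lies wholly inside the GENCODE gene. Capitals in the SP5 (chr2:170715087-170715386, plus strand) and SP8 (chr7:20786837-20787136, minus strand) windows mark TCF/LEF motifs, searched on both strands as CTTTGAA or CTTTGAT or CTTTGTA or CTTTGTT. Capitals in the CD44 window (chr11:35138921-35139220, plus strand) mark GC boxes, the kind of site that SP factors bind, searched on both strands as GGGCGG.
SP5: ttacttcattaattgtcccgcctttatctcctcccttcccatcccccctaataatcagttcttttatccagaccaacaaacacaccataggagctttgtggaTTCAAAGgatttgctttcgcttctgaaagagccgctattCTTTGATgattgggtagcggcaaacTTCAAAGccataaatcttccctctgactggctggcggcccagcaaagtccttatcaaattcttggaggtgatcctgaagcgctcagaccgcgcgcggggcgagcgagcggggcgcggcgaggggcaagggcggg
SP8: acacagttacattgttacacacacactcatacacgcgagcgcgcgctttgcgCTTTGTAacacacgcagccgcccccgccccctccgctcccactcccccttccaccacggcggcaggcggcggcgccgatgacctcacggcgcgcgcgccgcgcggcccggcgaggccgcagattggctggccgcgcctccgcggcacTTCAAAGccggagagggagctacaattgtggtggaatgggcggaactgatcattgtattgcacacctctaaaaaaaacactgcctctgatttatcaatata
CD44: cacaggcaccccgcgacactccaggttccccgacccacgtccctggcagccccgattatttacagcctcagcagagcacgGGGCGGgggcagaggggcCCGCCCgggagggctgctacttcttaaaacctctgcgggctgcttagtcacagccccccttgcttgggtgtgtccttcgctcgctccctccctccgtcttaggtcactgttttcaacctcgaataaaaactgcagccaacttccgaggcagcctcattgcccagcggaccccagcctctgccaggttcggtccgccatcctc

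The SP5 window held 3 TCF/LEF motifs, at -148 to -142, -109 to -103 and -84 to -78, with 0 as the first base of the gene in RefSeq. The SP8 window held 2, at -198 to -192 and -51 to -45. Among 10 windows of listed SP and KLF genes 4 held a TCF/LEF motif, the others being 1 window each of KLF6 and KLF11, which rose. The CD44 window held 0 TCF/LEF motifs, 0 AP-1 motifs (TGANTCA) and 2 GC boxes, at -170 to -165 and -152 to -147. That window holds no base upstream of the GENCODE start of CD44, so it says nothing of motifs there. GC boxes, not marked in the other windows, numbered 1 in the SP5 window and 3 in the SP8 window. No motif overlapped another in the SP5 or CD44 windows. Of 35116 RefSeq promoter windows of the same length, 13.8% held at least 1 TCF/LEF motif, 1.58% at least 2 and 0.179% (63 windows) at least 3. AP-1 motifs stood in 7.71% of these windows and GC boxes in 45%. Among windows of listed genes 68.5% held at least 1 GC box and 45.2% at least 2. A match describes the letters in a window and does not show that a factor binds there. The 3 SP5 motifs are thus uncommon for windows of this length, and the share of windows with a TCF/LEF motif was 9.95% for genes called lower in fasting medium and 9.95% for genes called higher.

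Values are normalized counts, the reads of a gene divided by a size factor of its library. Reads in listed genes numbered 4017618 to 5602177 per library, and size factors ran from 0.727 to 1.41. The table holds only genes with an adjusted p under 0.05 in the authors' own test, 3511 of 29845 tested (11.8%), so that the groups did not overlap in 100% of listed genes and a gene outside it has no value here. Of all genes the authors tested, 11.1% passed the limma test used here (5.85% higher and 5.25% lower in fasting medium), which is 94.3% of the listed ones (49.7% higher and 44.6% lower). All 3 members were called, and a call is near the rule in this table. Scaling each library by its summed listed reads (total-read scaling) would lower every log2 fold change by about 0.48 and turn the split of calls from 1745 higher and 1567 lower (52.7% higher) to 862 and 1708 (33.5% higher). RLE scaling would raise each by 0.20. The labels do not state that libraries within a group came from different cultures. The p-values therefore rest on library-to-library spread, which may be technical.

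Fasting replicate 3 stood apart from the other fasting libraries with transcript length. Listed genes with transcripts about as long as that of SP5 (2033 bases, within 1.2-fold, 475 genes) had a median of 0.34 log2 units in this library relative to fasting replicates 1 and 2, those about as long as AXIN2 (4259 bases, 689 genes) at -0.11 and those about as long as CD44 (5732 bases, 516 genes) at -0.33. The same medians for control replicate 3 were 0.01, 0.01 and -0.01. SP5 itself lay 0.66 log2 units above the other fasting libraries in fasting replicate 3, AXIN2 0.27 above and CD44 at -0.03. The part of transcript length in these values was not tested beyond the fits given below without that library and with the length trend removed. Without fasting replicate 3 the limma fit called 3509 of the 3511 listed genes, so a pass in that fit does not set a gene apart. The length trend was removed in each library, which also takes away any difference between the groups that follows transcript length.

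SP5, the transcriptional repressor among the feedback genes, had 113.4, 115.1 and 76.3 normalized counts in the control libraries, in replicate order, against 22.9, 25.1 and 38.5 in the fasting libraries. Every fasting library lay below every control library, with control replicate 3 and fasting replicate 3 nearest to each other. The means were 101.6 ± 21.9 in control and 28.8 ± 8.5 in fasting medium (SD, n = 3 each). On the log2(normalized count + 1) scale the log2 fold change of fasting against control libraries was -1.79 ± 0.25 (SE, 95% confidence interval -2.38 to -1.21, limma with Benjamini-Hochberg adjustment, adjusted p = 0.00224). By the means of log2 values SP5 was thus 3.47-fold higher in control medium, and its fall ranked 111 among the listed genes by size. These values rest on few reads, 105 to 162 per control library and 18 to 28 per fasting library. For counting error alone, the exact 95% Poisson interval of fasting replicate 3 was 25.6 to 55.7 normalized counts and that of control replicate 3 was 62.4 to 92.4, so these nearest libraries stayed apart. Without fasting replicate 3 the log2 fold change was -2.02 (adjusted p = 2.07e-06), and with the length trend removed it was -2.07. Without moderation of the variance SP5 did not pass (adjusted p = 0.0539).

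AXIN2, the inducible scaffold of the destruction complex, had 100.6, 100.9 and 85.8 normalized counts in the control libraries, against 43.2, 48.1 and 55 in the fasting libraries. The lowest control library was again replicate 3 and the highest fasting library again replicate 3, and the groups did not overlap. The means were 95.8 ± 8.6 in control and 48.8 ± 5.9 in fasting medium (SD, n = 3 each). The log2 fold change was -0.96 ± 0.155 (SE, 95% confidence interval -1.32 to -0.60, limma, adjusted p = 0.00434), which makes AXIN2 1.95-fold higher in control medium. It rested on 102 to 142 reads per control library and 34 to 46 per fasting library. The exact 95% Poisson interval of fasting replicate 3 was 39.3 to 74.9 normalized counts and that of control replicate 3 was 71.0 to 102.7. Unlike those of SP5, the intervals of these nearest libraries overlapped, so counting error alone does not keep them apart. Without fasting replicate 3 it was -1.05 (adjusted p = 9.10e-05).

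CD44, the hyaluronan receptor, had 1923, 1847 and 1794 normalized counts in the control libraries, against 4061, 4059 and 3967 in the fasting libraries. All fasting libraries lay above all control libraries, and the spread within each group was small beside the gap. The means were 1855 ± 65 in control and 4029 ± 54 in fasting medium (SD, n = 3 each). The log2 fold change was 1.12 ± 0.07 (SE, 95% confidence interval 0.95 to 1.29, limma, adjusted p = 8.18e-05), a 2.17-fold rise that ranked 777 among the listed genes by size. It rested on 1950 to 2600 reads per control library and 2885 to 3880 per fasting library. With total-read scaling the rise was 0.64 (adjusted p = 0.00264), with RLE scaling it was 1.32, and with the length trend removed 1.45. The deposited table counts all CD44 transcripts together, so its splice variants are not told apart. In bulk RNA, fewer cells with a transcript and less of it per cell cannot be told apart either, for any gene here.

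**Figure D1:**
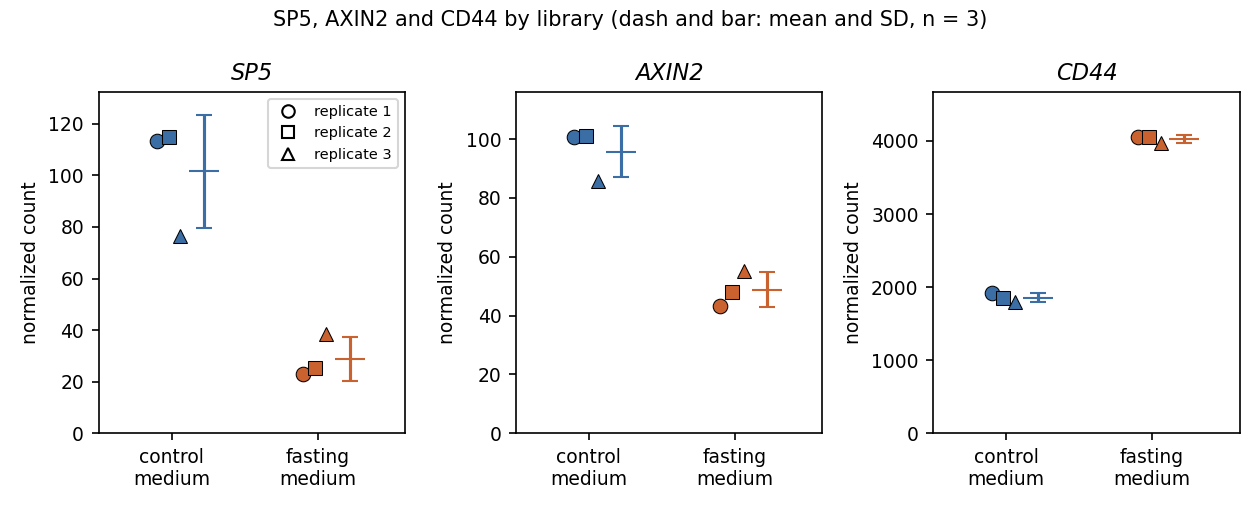
Normalized counts (vertical axes, from 0) of SP5, AXIN2 and CD44 in each library of control and fasting medium. Circles, squares and triangles are replicates 1, 2 and 3, and the dash with its bar is the mean and SD of 3 libraries. SP5 and AXIN2 lie lower in all 3 fasting libraries and CD44 higher, and replicate 3 of both groups lies nearest to the other group for SP5 and AXIN2.

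Per kilobase of the longest protein-coding transcript in GENCODE 29, CD44 had the highest level in both media, 324 normalized counts per kb in control and 703 in fasting medium. SP5 followed with 49.98 and 14.2, and AXIN2 had 22.5 and 11.5. In control medium the SP5 libraries (37.5 to 56.6 per kb) lay above the AXIN2 libraries (20.1 to 23.7 per kb). In fasting medium SP5 (11.2 to 18.9 per kb) and AXIN2 (10.1 to 12.9 per kb) had overlapping ranges, although SP5 lay above AXIN2 in each of the 3 fasting libraries. This difference in level was not tested. CD44 lay far above both in every library. These levels depend on which transcript gives the length.

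The members were then compared within each library, where the scaling of the library drops out apart from the pseudocount. The difference between CD44 and AXIN2, as log2(normalized count + 1), was 4.27 ± 0.10 in control and 6.35 ± 0.19 in fasting medium (SD, n = 3 each). It thus grew by 2.08 log2 units (SE 0.12), or 4.23-fold as a ratio, and each fasting library (6.15 to 6.52) lay above each control library (4.18 to 4.37). The difference between CD44 and SP5 grew from 4.20 ± 0.29 to 7.11 ± 0.41, by 2.91 log2 units (SE 0.29) or 7.54-fold. CD44 rose and AXIN2 and SP5 fell without overlap, so the groups had to separate in both differences. The separation therefore adds nothing to the fold changes given above.

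SP5 and AXIN2 were compared in the same way, and the mean fall of SP5 was the larger. SP5 minus AXIN2 was 0.17, 0.19 and -0.17 in the control libraries, against -0.89, -0.91 and -0.50 in the fasting libraries. The mean went from 0.06 ± 0.20 to -0.77 ± 0.23, a change of -0.83 log2 units (SE 0.18), so that the ratio of SP5 to AXIN2 in fasting medium was 0.562 of that in control medium. Each of the 3 pairs had an exact two-sided permutation p of 0.1 and an adjusted p of 0.1 over the 3 pairs. This is the smallest p that this test can give for 3 against 3 libraries, so it cannot pass 0.05 whatever the size of the difference.

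**Figure D2:**
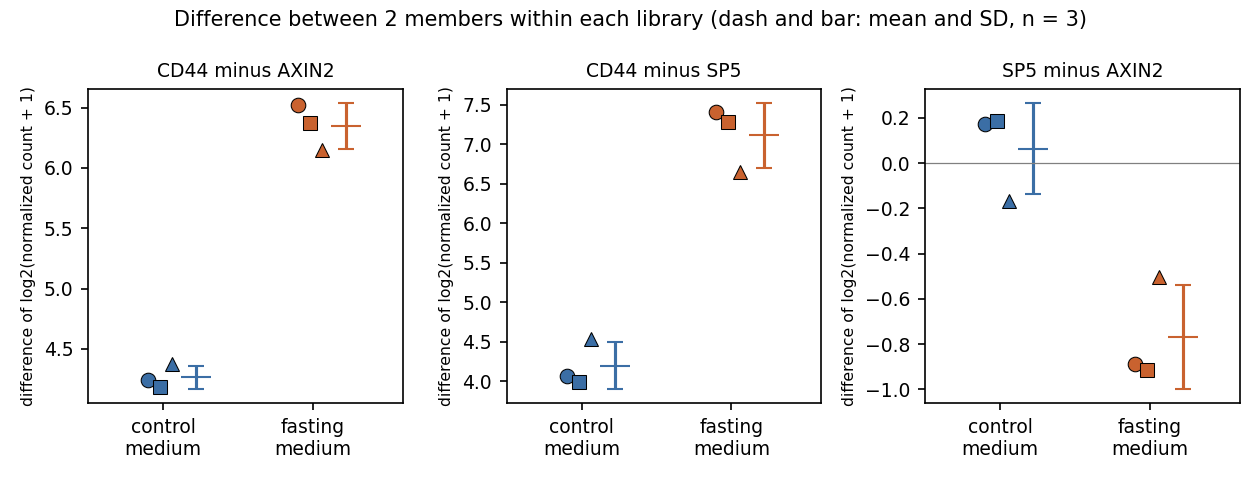
Difference between 2 of the 3 members within each library, in log2(normalized count + 1) units (vertical axes, not from 0), for control and fasting medium. Symbols are replicates as in the plot of counts, and the dash with its bar is the mean and SD of 3 libraries. The groups do not overlap in any pair. The mean of the fasting libraries minus that of the controls is 2.08 for CD44 minus AXIN2, 2.91 for CD44 minus SP5 and -0.83 for SP5 minus AXIN2.

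Other genes of the pathway were taken from 7 lists arranged by role, 186 genes in all. Of these, 39 were listed (21.0%, against 11.8% of all genes tested), and the limma test called 12 higher and 24 lower. These shares are not like for like, because the list genes were picked by name with earlier results of these data known. Without the 3 members, 11 of 36 listed genes were called higher and 22 lower. Among all 3511 listed genes, 1745 were called higher and 1567 lower. By the sign of the authors' own fold change, called or not, 1764 were higher and 1746 lower. The median log2 fold change of all listed genes was 0.53, against -0.74 for the 36 genes. Lists are described here by their counts and medians and were not tested against other genes.

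Of 25 Wnt ligands and genes of their secretion and potentiation, WLS alone was listed. WLS, the carrier that takes Wnt ligands to the cell surface, rose from 1058 ± 33 to 1561 ± 33 normalized counts (log2 fold change 0.56, adjusted p = 0.00188), a call lost with total-read scaling (0.08). Of 22 receptors and co-receptors 5 were listed and all 5 were called lower, where 44.6% of all listed genes were called lower. LGR4, a receptor for the R-spondins that strengthen Wnt signals, fell by 1.53 on the log2 scale (adjusted p = 3.82e-04), from 311 ± 15 to 108 ± 18 normalized counts. The Frizzled receptors FZD1 (-1.40) and FZD4 (-1.21), the FZD4 partner TSPAN12 (-0.93) and the co-receptor PTK7 (-0.86) fell too. All 5 passed in each of the 21 settings tried.

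Of 25 genes grouped under the destruction complex and Dishevelled 5 were listed, AXIN2 among them. The casein kinase CSNK1G2 fell too (-0.67, adjusted p = 0.00479), and this grouping does not make it a part of the complex. APC, AMER1 and DACT3 were listed and did not pass the limma test. APC, the tumour suppressor scaffold, had 1102, 1130 and 1088 normalized counts in the control libraries and 799.7, 818.0 and 463.4 in fasting replicates 1 to 3 (log2 fold change -0.72, adjusted p = 0.0773). Fasting replicate 3 was the low library, also for AMER1, a binding partner of APC (218, 183 and 89.4 in fasting replicates 1 to 3, adjusted p = 0.0938). Without it APC was at -0.45 (adjusted p = 1.93e-05), AMER1 at -0.61 (adjusted p = 3.50e-04) and DACT3, a Dishevelled antagonist, at -0.88 (adjusted p = 0.00244). That fit called 3509 of the 3511 listed genes, so passing in it does not set these genes apart. Transcripts of APC and AMER1 are long, 10701 and 8443 bases, and with the length trend removed APC was at -0.03 (adjusted p = 1) and AMER1 at -0.44 (adjusted p = 0.286).

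Of 23 genes for beta-catenin, TCF/LEF factors and their cofactors, PYGO2 alone was listed. PYGO2, a chromatin reader that binds beta-catenin through BCL9, fell from 1240 ± 57 to 716 ± 39 normalized counts (log2 fold change -0.79, adjusted p = 6.90e-04). Of 31 genes of planar cell polarity and other Wnt branches 7 were listed, and all 7 were called lower (median -0.75). Of all listed genes 44.6% were called lower. CELSR2 (-1.61), VANGL1 (-1.37) and SCRIB (-1.12), which set cell polarity, fell most, and MAPK9, NFATC1, CAMK2G and INTU fell by 0.66 to 0.75. CELSR2 was lower in fasting replicate 3 (309 normalized counts) than in the other fasting libraries (529 and 564), and its longest transcript has 10534 bases. Its log2 fold change was -0.94 with the length trend removed, and without moderation of the variance its call was lost (adjusted p = 0.0596). NFATC1 also lost its call without control replicate 2 or 3, and INTU without any 1 control library or fasting replicate 1. NFATC1, CAMK2G and INTU lost their calls with RLE scaling, and INTU, whose longest transcript has 13233 bases, turned to 0.0283 once the length trend was removed. Leaving out fasting replicate 3 instead left INTU at -0.62.

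Feedback genes and secreted antagonists moved in 1 direction. Of 27 such genes 6 were listed and all 6 fell, SP5 and AXIN2 among them. The median was -0.93, and -0.82 over the other 4 alone. All 6 were called lower, and beside this 44.6% of the listed genes were called lower. KREMEN2, a receptor for the Dickkopf antagonists, had 713, 752 and 640 normalized counts in the control libraries, against 227, 258 and 371 in the fasting libraries (log2 fold change -1.32, adjusted p = 0.00197). Like SP5, it was highest among fasting libraries in replicate 3. NKD1 and NKD2, which bind Dishevelled and damp the signal, fell by 0.89 and 0.75, and TRABD2A, a membrane protease that inactivates Wnt ligands, by 0.73. NKD1 was lowest in fasting replicate 3 (155, against 199 and 227) and NKD2 highest there (347, against 234 and 242). With the length trend removed NKD1, whose transcript has 17105 bases, was at -0.01 (adjusted p = 1), and 5 of the 6 feedback genes passed. Leaving out fasting replicate 3 instead left NKD1 at -0.74. The call of NKD2 was lost on leaving out any 1 library other than fasting replicate 3 (adjusted p up to 0.0904) and with RLE scaling (adjusted p = 0.0684). Without moderation of the variance 2 of the 6 passed, AXIN2 and TRABD2A.

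Other genes known as Wnt targets in colorectal cells moved both ways. Of 40 genes 15 were listed, 11 rose and 4 fell, with a median of 0.97, and without CD44 10 rose and 4 fell with a median of 0.91. All 15 were called, and among all listed genes 49.7% were called higher and 44.6% lower. ID2, an inhibitor of helix-loop-helix factors, rose by 2.93 on the log2 scale, from 24.0 to 26.6 normalized counts in the control libraries to 160, 175 and 287 in fasting replicates 1 to 3. VEGFA (1.84), an angiogenic growth factor, TBX3 (1.63), a T-box factor, and BMP4 (1.63), a secreted ligand, rose as well. ETS2 (0.97), PROX1 (1.03), BAMBI (0.85), MET (0.76) and MYC (0.59) also rose. With total-read scaling 7 of the 11 still passed, and PROX1, BAMBI, MET and MYC did not. PROX1 (160, 133 and 83.9 in fasting replicates 1 to 3) and MET (3845, 3660 and 2332) lost their calls on leaving out any 1 library other than fasting replicate 3. BAMBI lost its call without any of control replicates 1 and 3 and fasting replicates 1 and 2. Removing the length trend ended it too (0.57, adjusted p = 0.0850).

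The 4 targets that fell were MYB (-2.37), BIRC5 (-1.69), CCND1 (-1.44) and SOX9 (-1.42). MYB, a factor of progenitor cells, went from 196 ± 15 to 37.3 ± 6.0 normalized counts (adjusted p = 8.28e-05). CCND1, the G1 cyclin D1, went from 3559 ± 114 to 1317 ± 152 (adjusted p = 1.01e-04), and BIRC5, which encodes survivin, from 1616 ± 23 to 510 ± 136. SOX9, a factor of crypt base cells, was scarce, at 32.5 to 41.9 normalized counts in control and 10.5 to 15.2 in fasting medium. These 4 genes passed in each of the 21 settings.

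**Figure D3:**
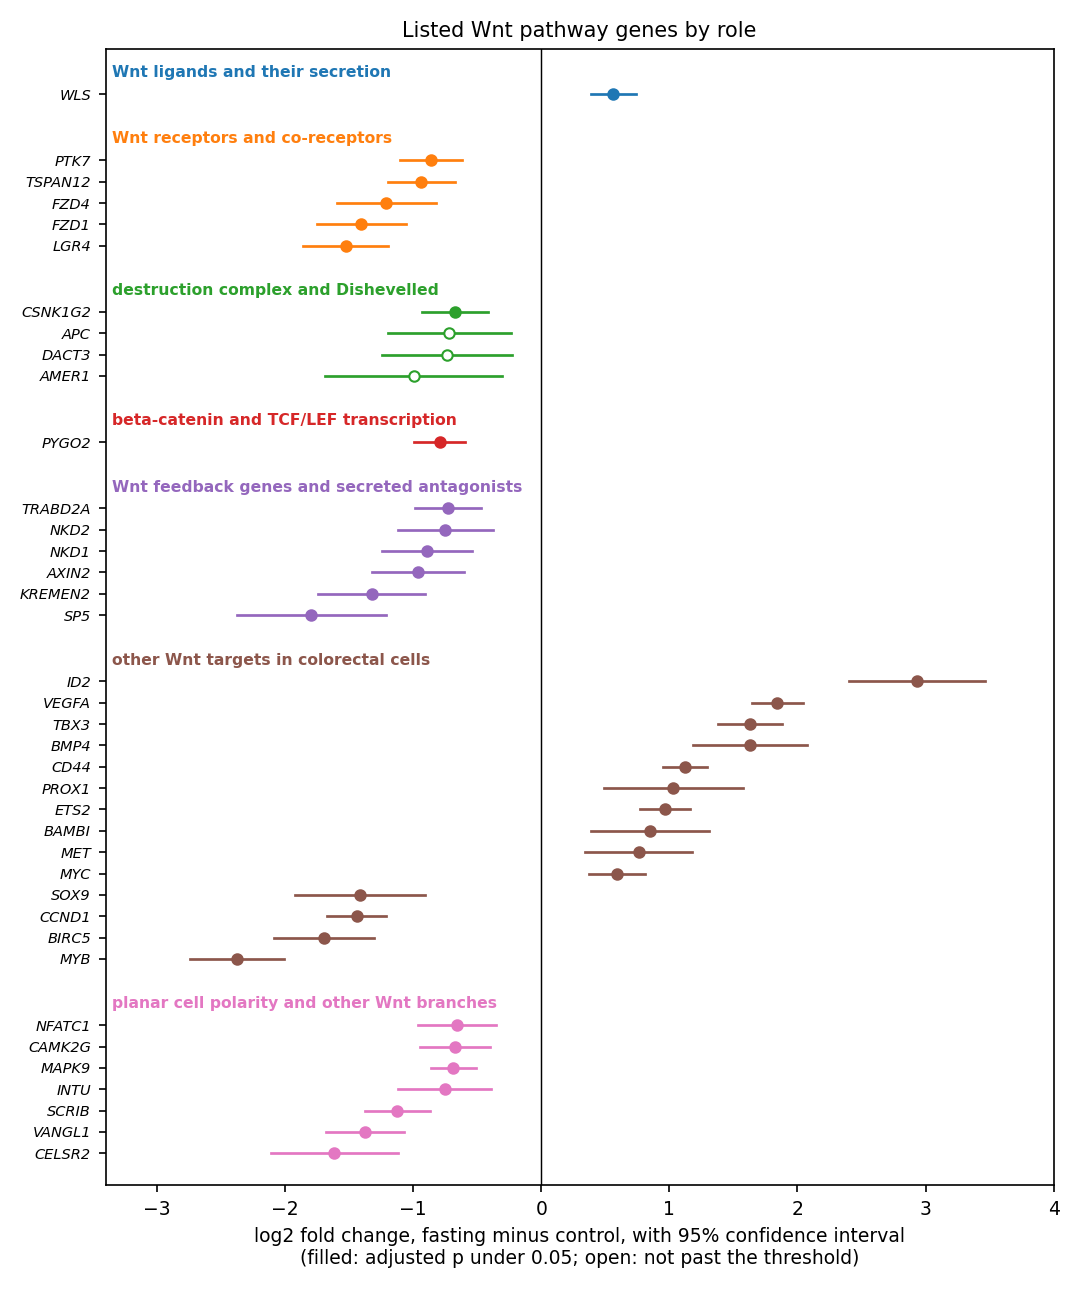
Log2 fold change of fasting against control libraries, from log2(normalized count + 1), with its 95% confidence interval, for the listed genes of the 7 Wnt lists reported here, grouped by role. Each gene is drawn in 1 group. Filled points passed the limma test and open points did not. The 6 feedback genes lie between -1.79 and -0.73, and the other targets drawn run from -2.37 to 2.93.

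SP5 belongs to a family of zinc finger factors that bind GC boxes and related sites. Of 27 SP and KLF genes 9 were listed, 6 were called higher and 2 lower. Of all listed genes 49.7% were called higher and 44.6% lower. The 2 called lower were SP5 and SP8, another SP factor. SP8 had 150, 139 and 117 normalized counts in the control libraries, against 26.7, 34.5 and 31.6 in the fasting libraries. Its log2 fold change was -2.09 ± 0.17 (SE, limma, adjusted p = 1.79e-04), the 51st largest fall of the table. SP4 did not pass (-0.79, adjusted p = 0.125), with 225, 183 and 106 normalized counts in fasting replicates 1 to 3. All 6 listed KLF genes rose, KLF4 (2.06), a factor of differentiating gut epithelium, and KLF5 (1.40) most. KLF15 rose by 1.19, KLF11 and KLF6 by 0.71 and KLF10 by 0.62. KLF11 lost its call without control replicate 2 or 3 or fasting replicate 1 or 2. With total-read scaling KLF4 and KLF15 alone among the 6 still passed. The difference between the SP and KLF genes was not tested.

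**Figure D4:**
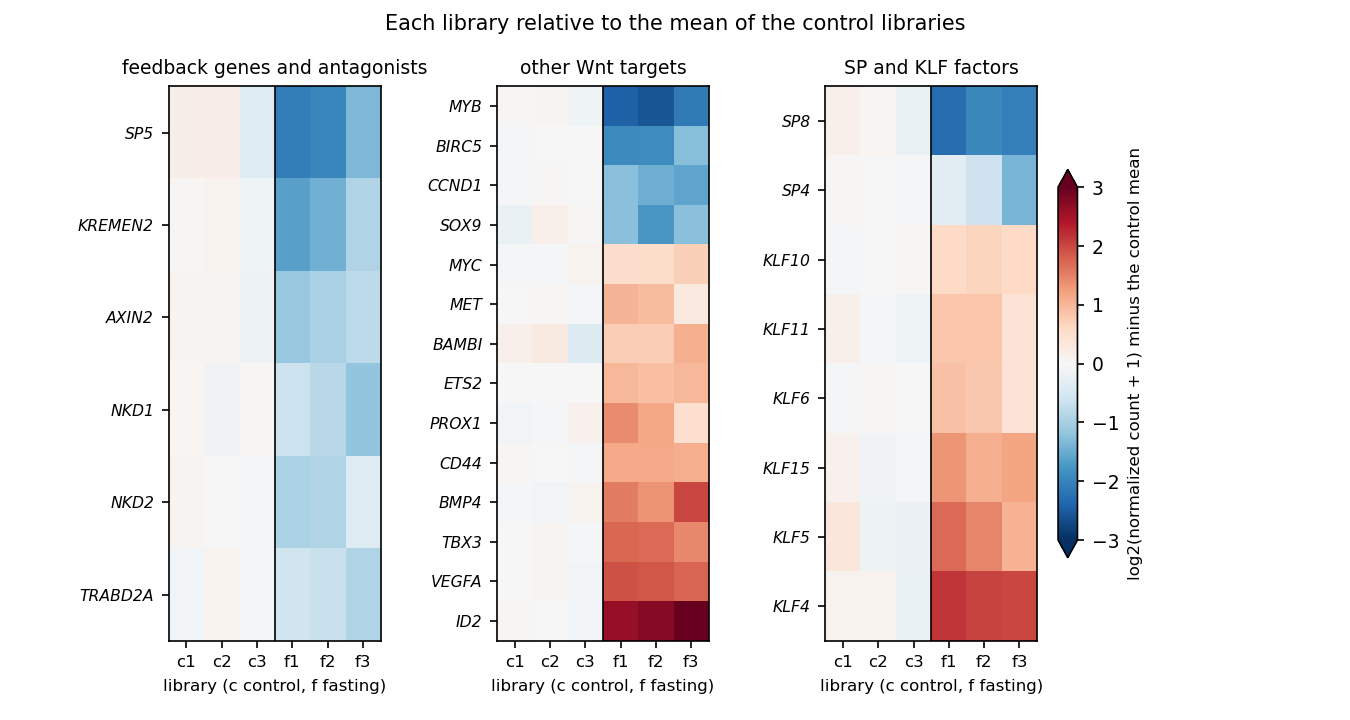
Log2(normalized count + 1) of each library minus the mean of the 3 control libraries, as colour (red higher, blue lower, with values past 3 in either direction drawn at the end of the scale). Rows are the feedback genes and antagonists, other Wnt targets, and SP and KLF factors, and columns are control (c1 to c3) and fasting (f1 to f3) libraries. The 6 feedback genes are lower in all 3 fasting libraries, while CD44 is higher by a like amount in each.

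Genes that act with CD44 also moved both ways. Of 34 genes for hyaluronan turnover, CD44 cleavage, splicing and binding partners 8 were listed, 5 rose and 3 fell. All 8 were called, and the shares of all listed genes called higher and lower were 49.7% and 44.6%. HAS2, a hyaluronan synthase, rose from 68.1 ± 4.3 to 175 ± 25 normalized counts (log2 fold change 1.34, adjusted p = 7.41e-04), while HAS3, another synthase, fell from 158.7 ± 6.1 to 72.3 ± 5.6 (-1.13, adjusted p = 7.59e-04). CEMIP2, a cell surface protein of hyaluronan breakdown, rose by 1.27. The sheddase ADAM17 (0.77) rose as well. MMP14, a membrane metalloproteinase that cleaves CD44, fell (-0.59), and so did SDC1, the heparan sulfate proteoglycan syndecan-1 (-1.62). ADAM17 lay at 1433, 1384 and 842 normalized counts in fasting replicates 1 to 3, and its call was lost on leaving out any 1 library other than fasting replicate 3. With total-read scaling HAS2 was the 1 riser of the 5 that still passed. No splicing regulator of the list, ESRP1 and ESRP2 included, was listed.

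The listed genes with the profiles most like each member were found by the Euclidean distance between log2(normalized count + 1) values over the 6 libraries, each gene centred on its own mean. For SP5 they were NTNG2 (distance 0.21), VWA1 (0.30) and SPC24 (0.47) of 2895 genes compared, and SP8 ranked 35 (0.68). NTNG2 went from 190 to 59.5 normalized counts on average. For AXIN2 they were PDXP (0.12), SAP30L (0.13) and ZSWIM9 (0.18) of 2913 genes. For CD44 they were TRIM5 (0.10), HSPA9 (0.11) and ZNF227 (0.11) of 2895 genes. None of these 9 genes stands in the Wnt lists. The likeness rests on 6 libraries that fall into 2 groups, so many genes have a similar profile.

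Markers of the cell type could be read only where a gene was listed. Of 15 colorectal epithelium markers KRT18 alone was listed, and it rose (1.72, adjusted p = 0.00108). Of 12 mesenchymal markers VIM alone was listed and fell (-0.89, adjusted p = 0.00849), a call lost without control replicate 1, and of 9 blood and endothelial markers 0 were listed. The other markers have no value here, so the labelled cell type could not be checked further.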

How the data were processed

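RNA was sequenced from 6 libraries of RKO cells, 3 per medium, grouped by the treatment label. Per the labels' protocols, total RNA was made into strand-specific libraries. The shared protocol text gives the low-serum medium for every sample, so groups rest on the label. Tools listed in the submitters' processing notes are DESeq 1.10.1, HTSeq 0.6.1 and UMI-tools 1.0.0, and what each did is not said. Aligner, genome build and gene models: not given in the sources used here. The deposited table gives, per gene, a signal for each library, which from its values is a normalized count, beside a p-value, an adjusted p-value and a log2 fold change from the authors. Divided by the smallest step of their library, the deposited signal values were whole for 100% of genes (tolerance 0.01 read), which gave size factors and reads.

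The main test was limma 3.58.1 (R 4.3.3) with a mean-variance trend on log2(normalized count + 1), keeping genes whose mean reached 1 in either group. It was fitted on all listed genes, with Benjamini-Hochberg adjustment over the 29845 genes the authors tested, unlisted genes at p = 1, two-sided, and threshold 0.05. The moderation was thus estimated on genes selected for their difference. edgeR 4.0.16 on the recovered reads called 3359 genes, against 3312. The fits were also tested on simulated data.

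The members, lists, motifs and rules were chosen with earlier results of these data known. Genes were matched through a table of gene names (3467 of 3511 identifiers). Listed members of the pathway lists are named, besides the 3 nearest profiles per member. Some list genes are included in the counts but not reported here by name. Of 57 listed genes of the lists, 39 had a RefSeq promoter window. Exact permutation tests over libraries compared members within libraries (Python 3.11.15), and scipy 1.17.1 gave the Poisson intervals. Alternatives covered pseudocounts, filters, variance models, count tests (edgeR, DESeq2 1.42.0, limma-voom), scalings, a replicate block, left-out libraries and the length trend.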

Additional observations from a re-analysis of the deposited data

How the results depend on the processing

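The calls of AXIN2 and CD44 held in all 21 settings, and that of SP5 in 20. Without moderation SP5 kept its log2 fold change of -1.79 and did not pass (adjusted p = 0.0539). In that setting 1134 genes were called higher and 847 lower (against 1745 and 1567), 15 Wnt pathway genes lower (against 24) and 2 feedback genes lower (against 6). With total-read scaling 862 genes were called higher, 7 Wnt pathway genes higher (against 12) and 7 other Wnt targets higher (against 11). Leaving out 1 library gave -2.02 to -1.65 for SP5, -1.05 to -0.88 for AXIN2 and 1.096 to 1.146 for CD44. The differences between members kept their direction in each setting run, though scaling could not change them apart from the pseudocount. Of 54 other listed genes of the lists, 50 were called and 22 of these lost the call in at least 1 of 20 alternatives. INTU turned from -0.75 to 0.0283 with the length trend removed. Labels give both groups the same replicate numbers, but same-numbered libraries deviated together only weakly across 2897 genes (r = 0.03, 0.03 and 0.08), so the numbers were not taken as pairing. With a replicate block 3293 genes were called, and the SP5 log2 fold change (-1.79, adjusted p = 0.0110), the AXIN2 log2 fold change (-0.96, adjusted p = 0.0194) and the CD44 log2 fold change (1.12, adjusted p = 0.00122) passed. The block ended the call of the BAMBI log2 fold change (adjusted p = 0.0711), brought the AMER1 log2 fold change past the threshold (adjusted p = 0.0484) and changed no other call among the list genes. Reads were fewest for SP5, at 18 to 28 per fasting library, and AXIN2 had 34 to 46.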

Other observations

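Among promoter windows of called genes, AP-1 motifs stood in 7.55% of 1829 windows of genes called higher in fasting medium. They stood in 3.28% of 1768 windows of genes called lower. The share was 5.28% over 3809 windows of listed genes and 7.71% over all 35116 windows. GC boxes stood in 66.9% of the windows of genes called higher and 69.7% of those of genes called lower. Some genes have several windows, and these shares were not tested. LINC01124, a long noncoding RNA gene that starts 784 bases before SP5 on the opposite strand in GENCODE 29, is not among the genes with deposited values.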
